A study of Mus musculus with 71 samples.

Results

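The genes described here were the sine oculis homeobox genes and their Eya cofactors Six2, Six3, Six4, Six5, Eya1, Eya2, Eya3 and Eya4, 8 of the 55450 genes of the GENCODE annotation. Their loops were those of a merged H3K27ac HiChIP loop list with an anchor within 2 kb of a transcription start site (TSS) of 1 of these genes, which gave 36 of 24244 loops. HiChIP joins proximity ligation of chromatin to immunoprecipitation, here of acetylated lysine 27 of histone H3 (H3K27ac), a mark of active promoters and enhancers. The series held 71 samples, and 2 of them were HiChIP libraries of mouse synovial sarcoma (SyS) tumors, the others being ChIP-seq libraries and inputs that were not analysed here. Both HiChIP tumors were hSS2 tumors, which expressed human SS18::SSX2 from the Rosa26 locus after Cre recombination, and SyS tumors of this model were started by injection of TATCre protein into the hindlimb in the second week of life. TATCre is a Cre protein that enters cells, so recombination was not restricted to 1 cell type by a promoter. The tumors were dissociated to single cells and no sort is described, so the libraries could also hold cells of the host. No HiChIP library of normal tissue or of another genotype was analysed here, so the values describe these tumors and carry no comparison with a control.

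The proteins of Six2 to Six5 are homeodomain transcription factors related to Drosophila sine oculis, and Eya proteins are their coactivators, which carry a phosphatase domain and do not bind DNA by themselves. Together with Pax factors and the corepressors of the Dach family they form a regulatory circuit used in the development of eye, ear, kidney and skeletal muscle. A well known target sequence of the sine oculis homeobox factors is the MEF3 site, found in promoters of muscle genes such as Myog.

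Each entry of the loop list named both anchors of a loop, how many paired-end tags joined them and a false discovery rate (FDR) from the loop caller. Positions ran through the genome 2 times along the list, and these stretches are called its parts, with 13683 loops and 28657 tags in the first and 10561 loops and 12917 tags in the second. Neither part could be tied to a tumor, since nothing in the list names one. Of all loops, 78.0% rested on a single tag. There were no values by tumor, so no replicate error could be given. Intervals below are exact Poisson or Wilson intervals at 95%, and they cover counting error only.

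Sequences of the promoters and anchors on which the results turn are shown first, with each CpG dinucleotide in capitals. The Six4 and Tmem30b promoters are shown for a Six4 loop of 433 kb with 7 tags, the printed Six4 window beginning just beyond the end of the anchor of that loop and lying inside a wider Six4 anchor of the second part, and the window inside Slc38a6 is from the anchor that Six4 reached within that gene. The Six5 and Dmwd promoters are the ends of the member loop with the most tags, the Eya1 window is from a distal anchor listed in both parts, and Six2 is an example of a member with no loop. Promoter windows are those of RefSeq on GRCm38.p6, with 250 bases before and 50 after a start, and the distal windows are the central 300 bases of an anchor in the same assembly.
Six4 promoter, chr12:73113376-73113675, minus strand: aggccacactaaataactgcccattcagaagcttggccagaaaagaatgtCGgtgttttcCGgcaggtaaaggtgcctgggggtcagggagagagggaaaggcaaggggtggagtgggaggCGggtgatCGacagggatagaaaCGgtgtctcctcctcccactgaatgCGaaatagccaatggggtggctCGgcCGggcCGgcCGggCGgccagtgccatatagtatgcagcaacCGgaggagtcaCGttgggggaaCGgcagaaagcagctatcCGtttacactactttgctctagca
Tmem30b promoter, chr12:73546346-73546645, minus strand: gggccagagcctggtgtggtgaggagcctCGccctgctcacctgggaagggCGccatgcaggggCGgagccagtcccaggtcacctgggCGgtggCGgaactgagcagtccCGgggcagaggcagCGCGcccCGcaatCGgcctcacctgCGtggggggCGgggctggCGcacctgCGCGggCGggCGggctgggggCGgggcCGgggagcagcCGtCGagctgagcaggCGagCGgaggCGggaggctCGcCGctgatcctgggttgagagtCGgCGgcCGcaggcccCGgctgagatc
Distal anchor of Six4 in Slc38a6, chr12:73336867-73337166, plus strand: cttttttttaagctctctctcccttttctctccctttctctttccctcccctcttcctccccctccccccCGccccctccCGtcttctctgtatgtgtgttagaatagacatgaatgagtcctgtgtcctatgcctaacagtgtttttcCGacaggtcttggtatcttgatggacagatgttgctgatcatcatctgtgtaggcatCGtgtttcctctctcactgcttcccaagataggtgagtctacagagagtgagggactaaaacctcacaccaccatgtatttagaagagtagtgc
Six5 promoter, chr7:19094294-19094593, plus strand: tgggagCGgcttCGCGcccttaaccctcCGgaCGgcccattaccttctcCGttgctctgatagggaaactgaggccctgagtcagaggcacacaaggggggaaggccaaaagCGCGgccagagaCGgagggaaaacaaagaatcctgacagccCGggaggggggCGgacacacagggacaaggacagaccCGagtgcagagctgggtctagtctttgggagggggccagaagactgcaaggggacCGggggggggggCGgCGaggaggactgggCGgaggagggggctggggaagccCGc
Dmwd promoter, chr7:19075950-19076249, plus strand: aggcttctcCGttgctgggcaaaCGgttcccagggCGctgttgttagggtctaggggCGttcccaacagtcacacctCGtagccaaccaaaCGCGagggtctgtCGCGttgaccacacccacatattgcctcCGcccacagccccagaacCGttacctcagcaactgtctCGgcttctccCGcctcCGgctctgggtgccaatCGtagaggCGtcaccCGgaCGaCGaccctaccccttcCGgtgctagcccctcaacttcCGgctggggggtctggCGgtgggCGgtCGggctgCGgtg
Distal anchor of Eya1, chr1:14506323-14506622, plus strand: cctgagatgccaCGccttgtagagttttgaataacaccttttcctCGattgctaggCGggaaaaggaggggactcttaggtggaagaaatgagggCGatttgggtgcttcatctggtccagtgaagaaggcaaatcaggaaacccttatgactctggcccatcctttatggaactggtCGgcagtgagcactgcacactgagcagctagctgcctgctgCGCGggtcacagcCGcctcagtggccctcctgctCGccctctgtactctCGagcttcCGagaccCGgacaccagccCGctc
Six2 promoter, chr17:85688205-85688504, minus strand: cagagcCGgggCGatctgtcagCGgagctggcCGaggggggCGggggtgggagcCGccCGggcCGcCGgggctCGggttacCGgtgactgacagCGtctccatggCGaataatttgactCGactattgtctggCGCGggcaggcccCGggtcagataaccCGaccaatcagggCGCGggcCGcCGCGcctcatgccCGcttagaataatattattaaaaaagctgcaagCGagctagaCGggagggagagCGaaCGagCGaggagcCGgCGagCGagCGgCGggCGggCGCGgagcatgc

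The printed Six4 promoter window held 15 CpG dinucleotides, the Tmem30b window 30, the Six5 window 17 and the Dmwd window 25. The median of 32851 promoters in the RefSeq table was 7. Another RefSeq window of Six4, chr12:73113196-73113495, held 16 and overlapped the end of the anchor of the 433 kb loop. The window within Slc38a6 held 4 and overlapped a coding exon of that gene at chr12:73337022-73337104. The Eya1 distal window held 13 CpG dinucleotides. The Six2 window held 37, more than in 94.4% of promoters in the table, although Six2 had no loop.

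Of the 8 genes, 6 had at least 1 loop. Six2 and Eya4 had none. Across the genome 23.9% of all GENCODE genes and 45.8% of the protein-coding genes had a loop. A loop of at least 2 tags was found at 4 of the 8, which were Six4, Six5, Eya1 and Eya3, and at 21.2% of protein-coding genes. The same 4 genes were those with loops in both parts of the list, a count for which no share over all genes is given here. With loops of an FDR under 0.01 alone, 2 of the 8 genes had a loop, Six4 with 15 tags and Eya1 with 4. The share of all genes with a loop at that FDR is not given here. No loop joined a promoter of the 8 to another of the 8.

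The loop score, the sum of tags over the loops of a promoter, came to 72 for the 8 genes, and Six4 and Six5 held 69.4% of it. Six4 had the highest score, with 32 tags (Poisson interval 21.9 to 45.2) in 9 loops. Six5 followed with 18 tags (10.7 to 28.4) in 9 loops. Eya1 had 10 tags (4.80 to 18.4) in 7 loops and Eya3 had 9 tags (4.12 to 17.1) in 8 loops. Six3 had 2 tags (0.242 to 7.22) and Eya2 1 tag (0.0253 to 5.57). The intervals of neighbours in this order overlapped, while that of Six4 lay above those of Eya1, Eya3, Six3 and Eya2. The scores are counts of tags that were not scaled for span, anchor width or the number of anchors nearby. Of the 18 tags of Six5, 10 came from a loop of 18.9 kb. Of the 32 tags of Six4, 18 came from loops over 200 kb. The order of the genes therefore does not compare loops of like span.

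**Figure D1:**
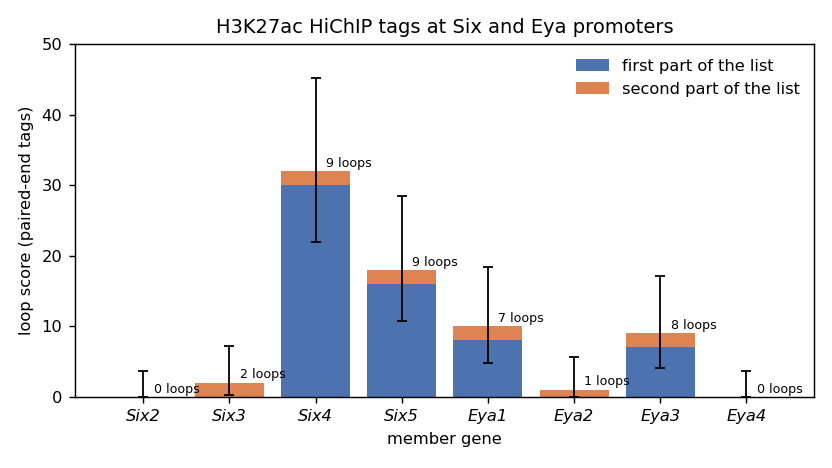
Loop score in paired-end tags (y axis) of each of the 8 genes (x axis), stacked by the first and second part of the loop list, with the number of loops printed beside each bar. Error bars are exact Poisson 95% intervals of the score and cover counting error only, and Six4 with 32 tags stood highest while Six2 and Eya4 had none.

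Most of the tags were in the first part of the list, which held 61 of the 72. In the second part the 8 genes had 11 loops, each of a single tag, or 15.3% of their tags, where the second part held 31.1% of all tags. Six3 and Eya2 appeared in the second part alone. The first part gave Six4 30 tags, Six5 16, Eya1 8 and Eya3 7, and the second part gave each of these 4 genes 2 tags.

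Of the 36 loops, 25 rested on a single tag (69.4%, Wilson interval 53.1 to 82.0%). Another 11 loops had at least 2 tags and 5 had at least 4. The median span, measured between anchor midpoints, was 435 kb, with 3 loops under 100 kb and 4 over 1 Mb. Tags are more frequent at short spans in this list, so each loop of at least 2 tags was also set beside the loops of similar span in the same part of the list. For a loop of 433 kb, for example, these were the loops from 347 to 542 kb.

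**Figure D2:**
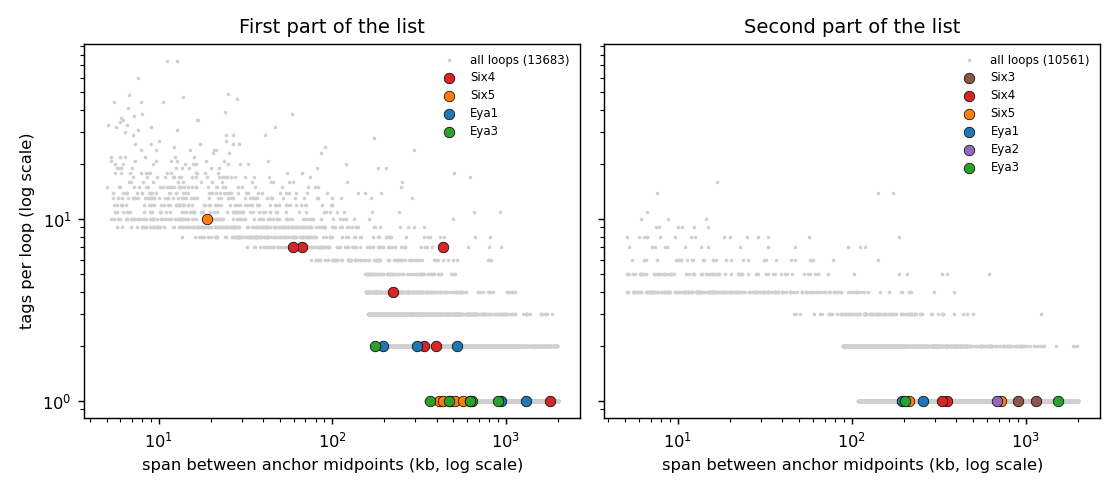
Tags per loop (y axis, log scale) against the span between anchor midpoints in kb (x axis, log scale) for all loops in grey and for loops of the 8 genes in color, in the first and second part of the list. The Six4 loop of 433 kb with 7 tags stood above nearly all loops of similar span, while the Six5 loop of 18.9 kb with 10 tags lay among the others of its span.

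Six4 (ENSMUSG00000034460.9, chr12:73099609-73113456, minus strand) encodes a homeodomain factor with roles in muscle and kidney development. Its score was rank 681 among the 13234 looped genes, and 5.33% of looped genes scored as high or higher. Its promoter anchor in the first part of the list was chr12:73111623-73113325, and a wider anchor with the same first base, ending at 73113959, stood in the second part.

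The longest-range contact of Six4 with more than 4 tags ran 433 kb to an anchor at chr12:73544579-73546827, over the promoter of Tmem30b, which encodes an accessory subunit of phospholipid flippases, and of the noncoding gene 2210039B01Rik. This loop had 7 tags with an FDR of 9.66e-14. Of 3206 loops in the first part with spans from 347 to 542 kb, 9 had at least as many tags (0.281%), this loop among them. The median of the 3206 loops was 1 tag. The Tmem30b anchor had 9 loops with 44 tags in all, so the loop with Six4 held a minor share of its contacts.

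A second distal anchor of Six4, at chr12:73335851-73338183, lay inside Slc38a6, a gene of an amino acid transporter family, and 6.18 kb from the nearest TSS. It was joined to Six4 over 225 kb by 4 tags with an FDR of 4.57e-05. Among 1071 loops of similar span, 168 (15.7%) had at least as many, and the median of the 1071 was 2 tags. This anchor within Slc38a6 was also joined to the Tmem30b anchor, 209 kb away, by 5 tags with an FDR of 5.31e-06, so that all 3 anchors were linked pairwise.

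The other long loops of Six4 had fewer tags. The noncoding gene Gm34016 was joined over 394 kb by 2 tags with an FDR of 0.00265, and 30.5% of loops of similar span had at least as many. Gm33929, also noncoding, was joined by 2 tags over 337 kb in the first part (FDR 0.00404). Of 1762 loops of similar span, 49.8% had at least as many. A separate anchor near the start of Gm33929 was joined by 1 tag over 333 kb in the second part. Ppm1a, a protein phosphatase gene, was joined over 352 kb and Dact1, a regulator of Wnt signaling, over 1.80 Mb, each by a single tag.

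The 7 loops of Six4 over 200 kb held 18 of its 32 tags.

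**Figure D3:**
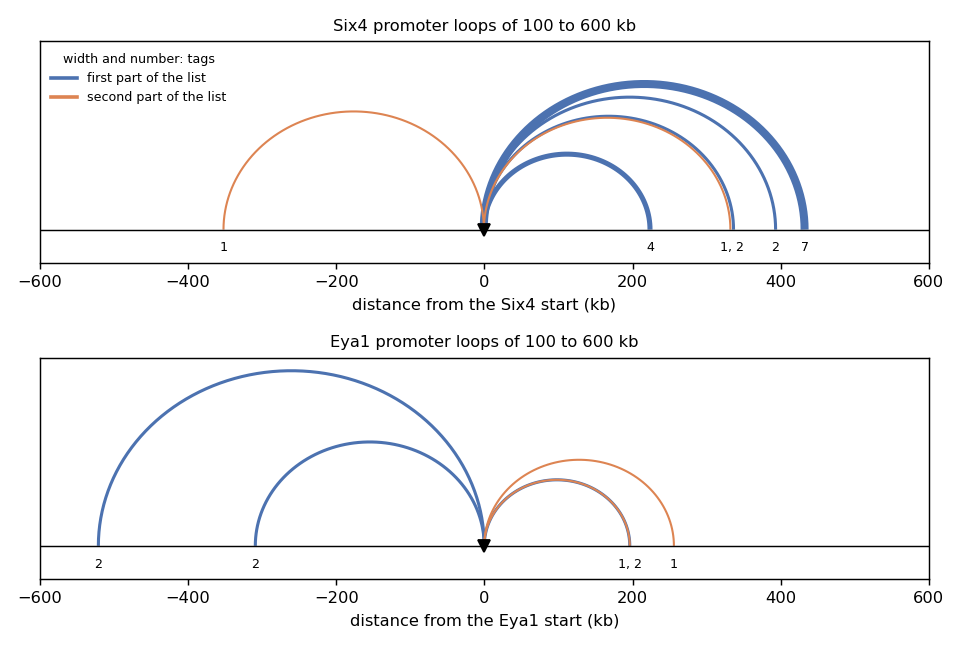
Loops at the Six4 promoter (top) and the Eya1 promoter (bottom), without those under 100 kb or longer than the x axis reaches, drawn as arcs between anchor midpoints against the distance from the gene start in kb along the plus strand (x axis), with arc height rising with span. Color gives the part of the list, and arc width and the printed numbers give the tags, such as the 7 tags of Six4 at 433 kb and the Eya1 pair at 196 kb that was listed in both parts.

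Six5 (ENSMUSG00000040841.5, chr7:19094594-19098549, plus strand) lies next to Dmpk, the gene of myotonic dystrophy protein kinase. Its promoter anchor, chr7:19093676-19097226, also lay within 2 kb of the start of a Dmpk transcript, so the tags of Six5 and of that transcript could not be told apart. The loop of Six5 with the most tags, 10 with an FDR of 0.0262, ran 18.9 kb to the promoter of Dmwd, a WD repeat gene of the same neighborhood. Of 128 loops of similar span 67.2% had at least 10 tags, and their median was 11. The other 8 loops of Six5 each had a single tag and spanned from 214 kb, at Fosb, which encodes an AP-1 factor, to 722 kb, at Bcl3, which encodes a nuclear IκB protein. All 9 distal anchors of Six5 lay at TSSs of protein-coding genes, a count for which no share over all promoters is given here. Within 500 kb of Six5 there were 45 protein-coding genes, and 26 of them were looped.

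Six3 (ENSMUSG00000038805.10, chr17:85613608-85629302, plus strand) encodes a factor of forebrain and eye development. It had 2 loops, each of a single tag and in the second part of the list. They spanned 1149 kb, to the promoter of Thada, and 910 kb, to an anchor inside Lrpprc with no TSS. Both promoter anchors of Six3 also lay near starts of the noncoding gene Six3os1, so the loops could not be assigned to 1 of the genes.

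Six2 (ENSMUSG00000024134.11, chr17:85684277-85688274, minus strand) maintains nephron progenitors of the kidney, and it lies close to Six3. It had no loop, so that its score of 0 had a Poisson interval up to 3.69 tags. The nearest anchor lay 53.6 kb from a Six2 TSS, at chr17:85632116-85634664, and had 1 loop of a single tag, spanning 199 kb, to an anchor with no TSS. Within 500 kb of Six2 there were 12 anchors, so the region was not empty of loops.

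Eya1 (ENSMUSG00000025932.14, chr1:14168954-14310235, minus strand) encodes a coactivator needed for ear and kidney development. Its promoter anchor, chr1:14308591-14311433, had 7 loops. The pseudogene Gm5523 was joined over 521 kb by 2 tags with an FDR of 0.00137, and 18.9% of loops of similar span had at least as many. An anchor at chr1:13999765-14002123 was joined over 309 kb by 2 tags with an FDR of 0.00596, and 72.2% of loops of similar span had at least as many.

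An anchor at chr1:14504590-14508355, 196 kb from the Eya1 promoter anchor, was joined by 2 tags in the first part of the list (FDR 0.0262) and by 1 tag in the second (FDR 0.0175). All 977 loops of similar span in the first part had at least 2 tags, so 2 was the lowest count listed there. In the second part 1 tag is the least a listed loop can have, so the 2044 loops of similar span give no comparison. By exact coordinates, this was the only pair of anchors of the 8 genes listed in both parts. Anchor edges could differ between the parts, as at the Six4 promoter, and such pairs would not be matched. The share of all loops listed in both parts is not given here, so the pair is not shown to be unusual. A further anchor with no TSS was joined over 256 kb by 1 tag. Ncoa2, a nuclear receptor coactivator gene, was joined over 937 kb and Slco5a1, of an organic anion transporter family, over 1.32 Mb, each by a single tag.

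Eya1 was the member with the most distal anchors away from any TSS. Of its 6 distal anchors 3 had no TSS within 2 kb, and they held 6 of its 10 tags. Within 500 kb of Eya1 there was 1 other protein-coding gene, which had no loop. By contrast 23 protein-coding genes, 17 of them looped, lay within 500 kb of Eya3.

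Eya3 (ENSMUSG00000028886.15, chr4:132638987-132724765, plus strand) encodes a broadly expressed member of the family. Its 8 loops started from 3 promoter anchors. Of these, chr4:132638366-132640811 in the first part and chr4:132638341-132640811 in the second covered the same start. The other, chr4:132657784-132660029, was at a start inside the gene. With a promoter window of 1 kb, or with RefSeq TSSs, Eya3 had 6 loops. The loop to Med18, which encodes a Mediator subunit, spanned 176 kb and had 2 tags with an FDR of 0.0417. All 741 loops of similar span had at least 2 tags, so this loop had the lowest count among them. The other 7 loops had a single tag each. The Tmem222 promoter was reached from both the first start, over 638 kb, and the internal start, over 619 kb. All 7 distal anchors of Eya3 lay at TSSs of protein-coding genes, also without a share over all promoters here.

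Eya2 (ENSMUSG00000017897.18, chr2:165595032-165771727, plus strand) encodes a coactivator expressed in muscle precursors and cranial placodes. Its promoter had 1 loop of a single tag, in the second part, spanning 684 kb to the promoter of the zinc finger gene Zfp335, an anchor with 14 loops and 37 tags in all. Inside the gene, 78.6 to 153 kb from its start, lay 3 anchors with no TSS. They had 8 loops of a single tag each, 5 in the first part and 3 in the second, and all 8 ran to promoters of other genes. The share of such loops over all anchors with no TSS is not given here. One of them reached the same Zfp335 anchor as the Eya2 promoter.

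Eya4 (ENSMUSG00000010461.15, chr10:23102963-23350786, minus strand) encodes a coactivator with a known role in hearing and in the heart. It had no loop, with the same upper bound of 3.69 tags as Six2, and the nearest anchor was 382 kb away. There were 2 anchors within 500 kb of Eya4 against 45 around Eya3. The 2 Eya4 promoter windows in the RefSeq table held 36 and 28 CpG dinucleotides.

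The 6 looped genes had 34 distal anchors, and 29 of them (85.3%, Wilson interval 69.9 to 93.6%) were near the TSS of another gene. Over all looped promoters this share was 78.7%, inside that interval. Both shares count noncoding genes and pseudogenes. With TSSs of protein-coding genes only, the share for the 6 genes was 73.5% (56.9 to 85.4%). RefSeq TSSs gave 78.8% (62.2 to 89.3%). The share over all looped promoters was not computed with either of these TSS sets. Of the 5 distal anchors with no TSS, 3 belonged to Eya1, 1 to Six4 and 1 to Six3, and 2 of the 5 lay within a gene body.

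CpG density was lowest, by its median, in the distal anchors with no TSS. The 10 promoter anchors had a median of 42.9 CpG per kb and the 29 distal anchors near a TSS one of 40.8, where the median of all 16864 anchors was 32.8. The 5 distal anchors with no TSS had a median of 10.3. No median over all anchors with no TSS is given here, so this value is not shown to be particular to these genes. The Six4 promoter anchor of the first part, with 74.0 per kb, and the Tmem30b anchor, with 75.6, were at percentiles 96.9 and 97.3 of all anchors. The anchor within Slc38a6 had 10.3 per kb, at percentile 8.74. The 3 Eya1 anchors with no TSS had 3.82, 28.7 and 6.98 per kb, and the one with 28.7 was the anchor joined to Eya1 in both parts.

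**Figure D4:**
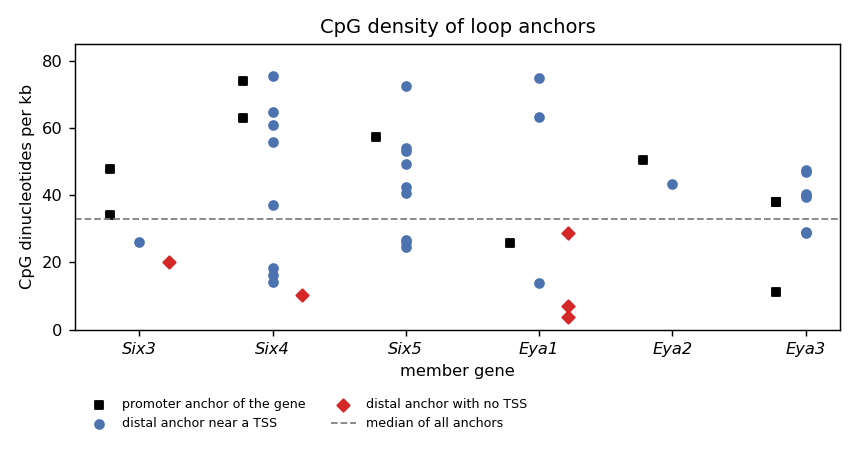
CpG dinucleotides per kb (y axis) of the anchors of each of the 6 looped genes (x axis), with promoter anchors as squares, distal anchors near a TSS as circles and distal anchors with no TSS as diamonds. The dashed line is the median of all anchors, 32.8 per kb, and all 5 diamonds lie below it.

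The MEF3 letters TCAGGTTTC, searched on both strands, occurred in 3.55% of all anchors and in 0.429% of all RefSeq promoter windows. In the Six4 promoter anchors they were found at chr12:73111641-73111649, and again at chr12:73113336-73113344, 120 bases inside the first GENCODE start and within the wider anchor alone. Of the RefSeq windows of Six4, the printed one held no match and the one at chr12:73113196-73113495 held 1. The Gm33929 anchor joined to Six4 held the letters at chr12:73448711-73448719. No promoter anchor of Six3, Six5, Eya1, Eya2 or Eya3 held these letters. These are matches of letters and not measured binding sites.

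The rest of the circuit was described by a list of 28 genes, of which 15 (53.6%) had a loop, beside 45.8% of protein-coding genes, with a median score of 2.50. The median score of Six2 to Six5 and Eya1 to Eya4 was 5.50, and that of all protein-coding genes was 0. A score of at least 10 was reached by 3 of the 8, by 2 of the 28 and by 2397 of 21951 protein-coding genes. Of the partners, Dach1 and the Groucho-related corepressors Tle1, Tle3 and Tle4 had scores from 3 to 5, and Dach2 had no loop. Of the 12 regulators 7 (58.3%) had a loop. Hoxc11, in a Hox cluster, had a score of 264, with 217 tags in the first part and 47 in the second. Pax6, an eye regulator, had a score of 11, all of it in the second part. Pax1, Pax7, Pax8, Osr1 and Wt1 had no loop. Of the 11 targets 4 (36.4%) had a loop, with scores from 2 to 6. The myogenic factors Myf5, Myf6, Myod1 and Myog had no loop, nor did Gdnf, Ccna1 and Tbx1.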

How the data were processed

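H3K27ac HiChIP was performed on 2 hSS2 tumors, labeled rep1 and rep2, after MboI digestion. Per the methods, the authors used HiC-Pro for mapping to mm10 and hichipper for calling loops. A legend of the study adds that Mango was used and that loops were called for both tumors and then merged. How tags of a loop found in both were combined is not given in the sources used here. The deposited list holds the count of paired-end tags per loop, not normalized. It also holds the FDR that the authors' caller gave each loop, a p-value adjusted for multiple testing, for which the methods name a threshold of 0.05 and that legend 0.01. The list runs up to 0.0500, so all its loops were used, with 0.01 as an alternative.

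Starts were converted to 1-based positions. Loops were assigned to a gene when an anchor overlapped the 2 kb on either side of the first base of any GENCODE vM21 transcript (GRCm38, the assembly of mm10). All anchors lay within GRCm38 chromosomes. Depth was 41574 tags over 24244 loops, which limits the precision of single loops. The 8 genes, the circuit list and the settings were chosen with earlier results of these data known. Named in full were loops of at least 2 tags, genes at their distal anchors, and circuit genes with a score of at least 10 or with none. Other genes at single-tag loops were named after their values were seen. Some results on the loops of Six4 are not reported here. RefSeq promoters were matched for 6 of the 8 genes. No test was possible with 1 merged list. The assignment code was checked on simulated data, where all 200 loops planted with an anchor inside the promoter window were recovered. Alternatives were other promoter windows, annotations, FDR and tag minimums, parts of the list, a span limit, and collapsed repeats. The scripts ran under Python 3.11.15 with pandas 2.3.3 and numpy 2.4.6, intervals came from scipy 1.17.1, and plots were drawn with matplotlib 3.10.9.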

Additional observations from a re-analysis of the deposited data

How the results depend on the processing

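Under 11 alternative settings Six2 and Eya4 had no loop in any, and Six4 had the highest score in 10, the exception being the second part of the list alone, where Six3, Six4, Six5, Eya1 and Eya3 each had 2 tags. With an FDR under 0.01, 2 of the 8 genes had a loop, with 19 tags. Of their 6 distal anchors, 66.7% (Wilson interval 30.0 to 90.3%) were near another TSS. An FDR under 0.001 left 1 gene, Six4, with 11 tags and 2 distal anchors, 50.0% of them (9.45 to 90.5%) near another TSS. These counts are too small to show a change from 85.3%. These limits also removed loops with more tags, such as the Six5 loop of 10 tags. The share of all genes that kept a loop under them is not given here. Loops of at least 2 tags held 47 tags, and the second part alone held 11. Of 66 scores of the 6 looped genes under these settings, 41 were within 1.5 times the reported value. No paired analysis was possible because the loops of both tumors were merged into 1 list with no column by tumor, and for the same reason neither tumor could be left out. Depth limits the precision, since 25 of the 36 loops rested on a single tag.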
